A study of Mus musculus with 4 samples.

Results

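The cells described here are myeloid cells of mouse trabecular bone whose RNA was rich in the genes of major histocompatibility complex (MHC) class II. They were picked from a droplet single-cell RNA library by UMI counts, a UMI (unique molecular identifier) being 1 captured RNA molecule. Of 15014 barcodes 11980 were kept, those with 1000 UMIs or more, 200 genes or more and no more than 15% of UMIs from mitochondrial genes. A member then had at least 20 UMIs summed over H2-Aa, H2-Ab1, H2-Eb1 and Cd74. To leave out B, plasma and plasmacytoid cells, macrophages and neutrophils, it had at most 1 UMI of Cd79a and Cd79b together, at most 2 of Siglech, at most 4 of C1qa, C1qb and C1qc together, at most 19 of Jchain, and less than 5% of its UMIs from S100a8 and S100a9. The rule found 143 members, 1.19% (1.01 to 1.40) of the kept barcodes. Brackets after a value hold its 95% interval throughout: exact Clopper-Pearson for a share, exact Poisson for a level in CPM (a gene's UMIs per 1000000 UMIs of the group), and exact conditional binomial for a ratio of 2 levels, each covering counting error only.

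All cells came from mice with the genotype Col10a1Cre;Rosa26-Tdtomato;Irx3 +/Δ;Irx5 +/-, which the labels call a heterozygous control, at 8 weeks of age and without parathyroid hormone (PTH). Col10a1 is a gene of hypertrophic chondrocytes, so the Cre and its reporter were aimed at growth plate cartilage. Each group below carries the same alleles, and what the alleles do in the members was not tested. Cells were released from the proximal and distal tibia with dispase, collagenase and trypsin. The 4 sample records share 1 matrix and 1 barcode suffix. No cell can be traced to its record, barcodes shared between records cannot be counted, there are no replicates, and animals could not be compared by a test. Over the 143 members 1421361 UMIs were counted, with a median of 7188 (1019 to 48415, lowest to highest) and a median of 2203 genes per barcode.

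MHC class II molecules present peptides from engulfed proteins to CD4+ T cells. Their alpha and beta chains (H2-Aa, H2-Ab1, H2-Eb1) are guarded by the invariant chain Cd74 until H2-DM loads a peptide, and their genes are switched on together through the coactivator CIITA. Conventional dendritic cells make such molecules constantly, depend on the receptor FLT3, and come as a type 1 lineage (XCR1, CLEC9A) and a type 2 lineage (SIRPA, and in part CD209A and CLEC10A). Monocytes and macrophages depend on the receptor CSF1R and can also make class II molecules.

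The summed count of the 4 genes that chose the members ran from 20 to 915 UMIs, with a median of 124. As a share of a barcode's own UMIs it ran from 0.0534% to 8.99%, with a median of 1.88%, so the members spanned a wide range and had no common level. H2-Aa, the alpha chain of I-A, was detected in 140 of the 143 members, with a median of 27 and a highest count of 173 UMIs. Cd74 was detected in all 143, with a median of 71 and a highest count of 426. Summed over cells, the 4 genes gave 2.02% of the members' UMIs. The comparison groups, formed by similar rules, gave 0.0103% in 421 classical monocytes (at least 3 UMIs of Ly6c2, at least 1 of Csf1r and Ccr2 together, and under 20 of the class II genes), 2.06% in 82 macrophages (at least 10 UMIs of the C1q genes), 0.255% in 97 plasmacytoid cells (at least 3 UMIs of Siglech) and 0.875% in 1046 mature B cells (at least 5 UMIs of Cd79a and Cd79b and at least 20 of the class II genes). Median depth was 8647 UMIs per barcode in monocytes, 5150 in macrophages, 6528 in plasmacytoid cells and 3333 in mature B cells. These levels describe the choice of the members and are not a result. Of the macrophages 48 reached 20 UMIs of the 4 genes, and of the plasmacytoid cells 33. Around the limit of 20 UMIs, 11 barcodes with 20 to 24 UMIs were members, and 13 with 15 to 19 met the other limits and were not. The 11 just inside had a median of 4571 UMIs, with Cd209a in 2, Flt3 in 3 and Csf1r in 4, and the 13 just outside had a median of 6794, with Cd209a in 1, Flt3 in 2 and Csf1r in 9.

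**Figure D1:**
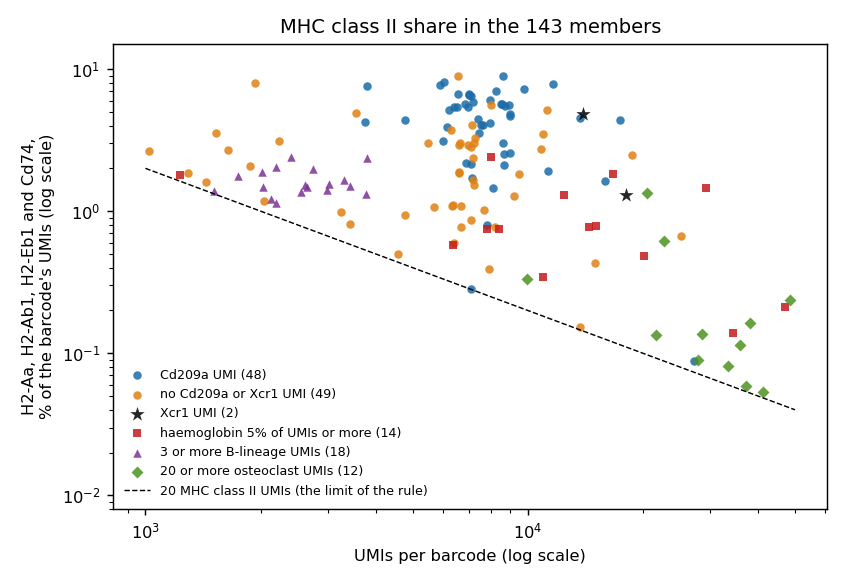
Each point is 1 of the 143 members, with its UMI count on the log x axis and the percent of its UMIs from H2-Aa, H2-Ab1, H2-Eb1 and Cd74 on the log y axis, and the dashed line marks 20 such UMIs. Members with Cd209a (blue) lie mostly above those with osteoclast or haemoglobin genes, which reach the limit at high UMI counts and low shares, and a barcode that met 2 of the limits for other lineages is shown as haemoglobin.

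The class II genes sit together on chromosome 17 (mm10): H2-Ab1 at chr17:34257689-34269419, H2-Aa at chr17:34282744-34287823 on the minus strand, and H2-Eb1 at chr17:34305867-34316674. Promoters of 2 of the defining genes are shown, with those of H2-Oa and H2-Ob of the loading machinery, because they hold the letters of the known control element of class II genes. It pairs an X box, searched for as GCAAC, with a Y box, searched for as ATTGG, 20 to 30 bases apart and in that order, on either strand of the 250 bases before the RefSeq start (GRCm38.p6). Of 12 class II and loading genes looked up, 10 had a promoter in the table, and 5 of these held the pair: H2-Aa, H2-Eb1, H2-Eb2, H2-Oa and H2-Ob. Promoters of H2-DMa, H2-DMb1, H2-DMb2, Ctss and Lgmn held no such pair in this window. Of 32851 mouse promoters of the same length 161 (0.490%) held it, while GCAAC alone was in 29.9% and ATTGG alone in 33.8%. A match is a run of letters and not proof of a site. The 120 bases before the start are printed 5′ to 3′ on the gene's strand, with both boxes in capitals.
H2-Aa, chr17:34287824-34287943, minus strand: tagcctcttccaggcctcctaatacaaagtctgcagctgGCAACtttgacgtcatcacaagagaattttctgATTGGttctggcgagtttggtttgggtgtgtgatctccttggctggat
H2-Eb1, chr17:34305747-34305866, plus strand: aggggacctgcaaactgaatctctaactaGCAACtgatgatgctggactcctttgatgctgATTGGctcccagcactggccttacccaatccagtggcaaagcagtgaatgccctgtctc
H2-Oa, chr17:34092259-34092378, plus strand: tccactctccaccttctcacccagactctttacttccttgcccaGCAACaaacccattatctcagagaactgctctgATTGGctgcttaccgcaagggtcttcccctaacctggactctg
H2-Ob, chr17:34238785-34238904, plus strand: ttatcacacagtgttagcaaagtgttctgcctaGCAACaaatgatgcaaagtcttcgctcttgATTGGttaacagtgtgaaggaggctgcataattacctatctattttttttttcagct
The gap between the boxes was 28 bases in H2-Aa, 27 in H2-Eb1, 28 in H2-Oa and 25 in H2-Ob. H2-Aa and H2-Eb1 encode presenting chains, and H2-Oa and H2-Ob the chains of H2-O, which holds back H2-DM.

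The label held for part of the members. Genes of red cells, B cells or osteoclasts, the last a myeloid cell of another kind, marked 44 of the 143, by limits set after the data had been seen. Haemoglobin took 5% or more of the UMIs in 14 (median 13473 UMIs per barcode), a level that marks red cells or their RNA. In 19 barcodes (median 2607 UMIs) there were 3 or more UMIs of B-lineage genes, Ebf1, Pax5 and Ms4a1 among them. In these 19 the transcription factor Ebf1 had 88 UMIs in 19, Pax5 28 in 15 and the surface protein Ms4a1 (CD20) 27 in 13, and neither Flt3 nor Csf1r had a UMI. In 13 barcodes (median 33351 UMIs) there were 20 or more UMIs of the bone-resorption genes Ctsk, Acp5, Atp6v0d2 and Mmp9. Their counts were 1577 for the collagen-cutting protease Ctsk in 12 of the 13, 2183 for the phosphatase Acp5 in 13, 1361 for Mmp9 in 11 and 290 for the proton pump subunit Atp6v0d2 in 12, and all 13 had Csf1r without Flt3. A pair of barcodes met 2 of the limits each. The class II genes gave 0.225% of the UMIs in the osteoclast-gene barcodes, 0.765% in those with haemoglobin and 1.40% in those with B-lineage genes, against 3.27% in the 99 that remained. Sums over cells weigh deep barcodes more. The osteoclast-gene barcodes held 412290 of the members' 1421361 UMIs, and the 99 held 776311. Of the 44, 1 had Cd209a and 43 had neither Cd209a nor Xcr1. All members with neither held 953943 UMIs, and those of them that remained held 338196. Ctsk, Atp6v0d2 and Ms4a1 had no UMI in the 99. Scrublet, a caller of doublets (2 cells in 1 droplet), marked 741 of the 11980 kept barcodes (6.19%) and 3 of the members, all 3 with haemoglobin. Whether the 44 are doublets was not tested. Each comparison below gives the number of called genes, out of all genes, with and without the 44. Levels, shares and ratios of members against monocytes, macrophages and plasmacytoid cells cover all 143 unless the 99 are named.

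Cd209a, a C-type lectin that binds sugars on microbes (chr8:3743397-3748984, minus strand), split the members into 49 with a UMI, 34.3% of them (26.5 to 42.7), 92 with neither Cd209a nor Xcr1, and 2 with Xcr1. After every barcode was thinned to 1000 UMIs the share was 18.2%, and among the 99 remaining members it was 48.5%. In mature B cells, which should lack the gene, the share was 0.860% at a median of 3333 UMIs and 0.0956% thinned, below the members' share. The source of these UMIs in B cells was not tested. Monocytes had 7.60% (1.19% thinned), macrophages 4.88% (3.66%) and plasmacytoid cells 22.7% (5.15%). The level was 192 (170.0 to 216) CPM in the members, 13.7 (10.7 to 17.3) in monocytes, 46.9 (29.4 to 71.1) in macrophages and 46.0 (32.5 to 63.1) in plasmacytoid cells, whose intervals overlap with those of the macrophages. In the 48 remaining Cd209a members the count per barcode had a median of 4 and a highest value of 17. Xcr1, the chemokine receptor of type 1 dendritic cells (chr9:123852315-123862029, minus strand), had 1 UMI in each of 2 members (1.40%) and none after thinning. In mature B cells 1 barcode held 3 Xcr1 UMIs, so a split by Xcr1 rested on 2 barcodes and no levels were compared across it.

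Flt3 and Itgax, dendritic genes given as marks of these cells, were not found in most of them. Flt3, the receptor for the dendritic growth factor FLT3L, was detected in 51 of 143 (35.7%, and 9.09% thinned), against 2.10% (0.478%) of mature B cells. Its level was 82.3 (68.1 to 98.7) CPM in members, 19.7 (16.1 to 24) in monocytes, 2.13 (0.0540 to 11.9) in macrophages and 254 (221 to 291) in plasmacytoid cells, the highest of these 4 groups. Itgax, the integrin chain CD11c, was detected in 30 members (21.0%, 2.80% thinned) and in 1.24% (0.478%) of B cells. Its level was 42.2 (32.2 to 54.3) CPM in members and 38.4 (22.8 to 60.7) in macrophages, with overlapping intervals, 3.91 (2.39 to 6.03) in monocytes and 98.0 (77.8 to 122) in plasmacytoid cells. Csf1r, the growth factor receptor of monocytes and macrophages, was detected in 74 members (51.7%, 15.4% thinned), in 77.4% of monocytes, whose rule asked for Csf1r or Ccr2, 73.2% of macrophages and 6.19% of plasmacytoid cells. Of the members 33 had Flt3 without Csf1r, 56 had Csf1r without Flt3, 18 had both and 36 had neither. Among the 48 remaining Cd209a members Flt3 was in 20 without Csf1r and in 11 with it, and Itgax in 16. Among the 49 remaining members with neither Cd209a nor Xcr1 these counts were 10, 4 and 8, and both Xcr1 barcodes had Flt3.

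**Figure D2:**
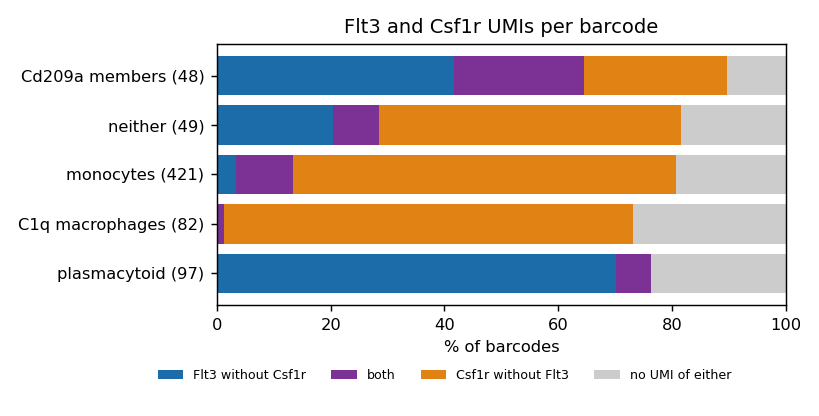
Stacked bars give the percent of barcodes with Flt3 without Csf1r, with both, with Csf1r without Flt3 and with neither, in the 48 remaining Cd209a members, the 49 remaining members without Cd209a or Xcr1, 421 monocytes, 82 C1q macrophages and 97 plasmacytoid cells. The monocytes were chosen in part by Csf1r or Ccr2. Flt3 without Csf1r was seen in 20 of 48 Cd209a members and 10 of 49 with neither, and Csf1r without Flt3 in 12 and 26.

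The 49 Cd209a members were next compared with the 92 members without Cd209a or Xcr1, on counts summed over cells. A gene was called higher or lower at a ratio of 2 or more either way with at least 20 UMIs over both sides. By this rule 590 of 6515 genes (9.06%) were higher in the Cd209a members and 821 (12.6%) lower. Among the 48 and 49 remaining barcodes 182 of 4609 (3.95%) were higher and 296 (6.42%) lower with the 43 other-lineage barcodes left out of 1 side and 1 of the other. Median depth was close on both sides, 7602 and 6639 UMIs per remaining barcode.

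C-type lectins, sugar-binding receptors of phagocytes, were among the higher genes. The split was made on Cd209a, so its own higher level is not a result. Clec10a, Mgl2 and Cd209d passed the minimum of UMIs through the Cd209a members. The higher genes of the lectin list are therefore given by name and not counted. Of the 9 lectin genes with enough UMIs 2 were lower over all barcodes and none among the remaining. Clec10a, a galactose-binding lectin (chr11:70156197-70170834), had 129 UMIs in 36 of the 48 Cd209a members (15 after thinning) and 3 in 3 of the 49 others. The ratio of its levels was 35.8 (12 to 176), and 71.8 (27.4 to 267) over all barcodes of the 2 sets. Its neighbour Mgl2 (chr11:70130329-70137550), whose sequence is close enough to Clec10a that reads may be shared, had 69 UMIs in 14 and 6 in 1, a ratio of 9.58 (4.18 to 27.0). Mrc1, the mannose receptor, which stands outside that list, had 67 UMIs in 24 and 9 in 5, a ratio of 6.20 (3.08 to 14.1). Cd209d (chr8:3871824-3878555, minus strand), a near copy of Cd209a whose reads may not be told apart from it, had 40 UMIs in 11 and none in the others, at least 11.1-fold higher against a floor of 3 counts. Clec4b1, another lectin of the same family of receptors, was higher by a ratio of 2.45 (1.39 to 4.53).

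Klrd1, the CD94 chain of natural killer receptors, was next to Clec10a by ratio among genes with at least 50 UMIs in the remaining barcodes. It had 77 UMIs in 23 of 48 Cd209a members (5 thinned) and 2 in 2 of 49, a ratio of 32.1 (8.58 to 269). Its share among plasmacytoid cells was 76.3%, and in mature B cells 0.956%. Of the 23, 16 also had Flt3 and 9 had Csf1r. The endocytic adaptor Dab2 was higher by 16.8 (7.50 to 46.7), in 21 and 3 barcodes, the receptor partner Ramp3 by 3.53 (2.17 to 5.98) and the adhesion protein Pvr by 3.91 (1.95 to 8.69). The neutrophil granule genes Elane (18.7, interval 8.39 to 52.0) and Mpo (4.48, interval 2.61 to 8.18) came out higher too, but their 135 and 86 UMIs lay in 2 Cd209a barcodes each.

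Few antigen presentation genes passed 2-fold once the other-lineage barcodes were left out. The chains that chose the members were 2.07 (H2-Aa) and 1.87 (Cd74) times as high in the remaining Cd209a members. Of 8 genes of class II loading with enough UMIs none was higher or lower among the remaining barcodes, with a median log2 ratio of 0.19, against -0.07 for all genes. The DM chains that load peptide had ratios of 1.67 (1.35 to 2.06) for H2-DMa and 1.96 (1.59 to 2.42) for H2-DMb1, and the coactivator Ciita 1.46 (0.685 to 3.25). Over all barcodes 4 of 9 were higher, H2-DMb1 among them at 3.36 (2.80 to 4.03). Of the co-stimulatory genes, 1 of 5 with enough UMIs was higher among the remaining barcodes: the T-cell ligand Cd80, at 2.05 (1.05 to 4.26). Cd83, a surface protein of activated dendritic cells, had a ratio of 1.72 (1.49 to 1.99), and Cd86 1.19 (0.870 to 1.65). The NF-kappaB subunit Relb was called at 2.01 (1.12 to 3.77), and Cxcl16, a membrane-bound chemokine, was higher by 2.50 (1.54 to 4.20).

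Dendritic growth factor and lineage genes were partly higher. Flt3 had a ratio of 1.92 (1.23 to 3.05) among the remaining barcodes, short of 2, and 4.38 (2.88 to 6.78) over all. Of 6 genes of conventional dendritic cells with enough UMIs 5 were higher over all barcodes and 2 among the remaining, the transcription factor Bcl11a at 2.86 (1.19 to 7.85) and the tryptophan-pathway enzyme Kmo at 2.36 (0.888 to 7.31), whose interval includes 1. Itgax (1.57, interval 0.864 to 2.96) and Dpp4 (1.67, interval 0.951 to 3.01) were not called. Of 5 genes of the type 1 lineage with enough UMIs, 2 were lower, the lipid hydrolase Naaa at 0.454 (0.304 to 0.670) and the surface protein Cd24a at 0.482 (0.272 to 0.836), though over all barcodes their ratios were 1.07 and 1.73. The division marker Mki67 was higher at 2.94 (1.69 to 5.37), with 60 UMIs in 9 Cd209a members and 3 of the others positive. Of 14 cell cycle genes 2 were higher, Mki67 and the mitotic cyclin Ccnb2, and 5 were lower, all of them genes of DNA synthesis (Mcm3, Mcm5, Mcm6, Tyms and Rrm2), so the list did not move one way.

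Among the remaining barcodes, genes of monocytes and macrophages were lower in the Cd209a members where they were called, apart from Mrc1. Of 12 monocyte genes with enough UMIs 4 were lower, Lyz2, Csf1r and Ace among them, and none higher. Over all barcodes the same list gave 6 higher and 2 lower, with Ccr2 at 2.19, Fn1 at 2.56 and F13a1 at 3.39, so its direction turned with the other-lineage barcodes. Lyz2, the lysozyme of phagocytes, had 3999 (3807 to 4198) CPM in the Cd209a members and 9672 (9343 to 10009) in the others, a ratio of 0.413 (0.389 to 0.439). Over all barcodes its ratio was 0.950. Csf1r stood at 0.484 (0.339 to 0.683). The peptidase Ace, a gene of nonclassical monocytes, had 4 UMIs in 3 of 48 and 32 in 18 of 49, a ratio of 0.104 (0.0267 to 0.294). The macrophage surface protein Adgre1 (F4/80) had a ratio of 0.363 (0.193 to 0.657), the haem-degrading enzyme Hmox1 0.333 (0.143 to 0.718) and the lipoprotein Apoe 0.428 (0.372 to 0.492). The neutrophil-attracting chemokine Cxcl2 had a ratio of 0.0446 (0.00893 to 0.137), with UMIs in 1 and 8 barcodes. The chemokine receptor Ccr2, which draws monocytes from marrow, had 589 (516 to 668) CPM in 40 Cd209a members and 591 (512 to 679) in 32 of the others, with overlapping intervals.

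**Figure D3:**
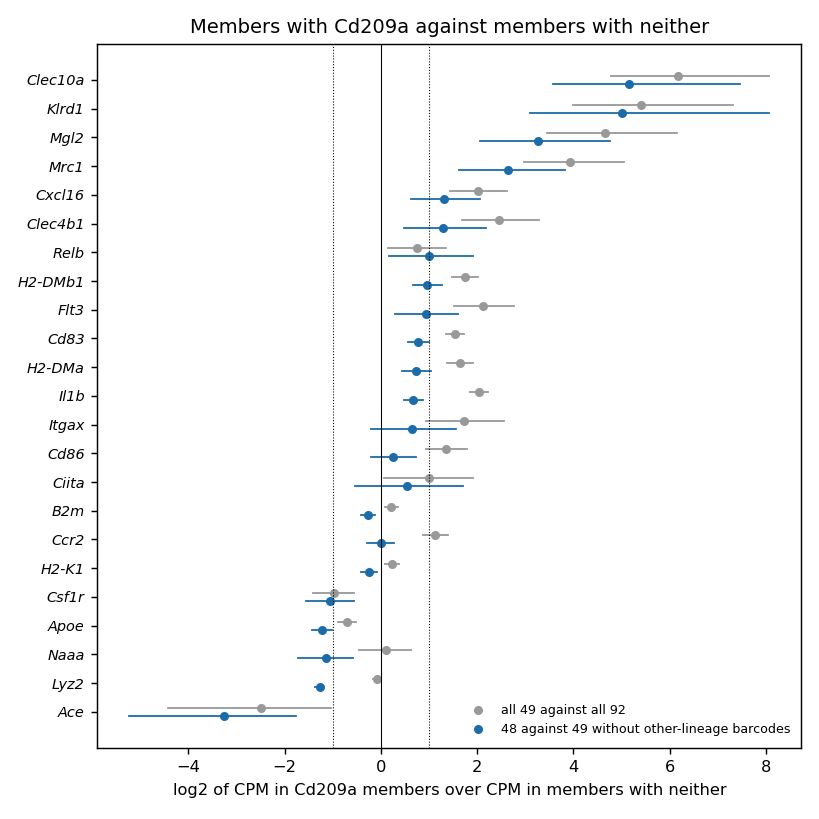
Points give log2 ratios of CPM, Cd209a members over members with neither, for 23 genes with 95% intervals of counting error, in grey for all 49 and 92 barcodes and in blue for the 48 and 49 that remained, and dotted lines mark 2-fold. Clec10a, Klrd1, Mgl2 and Mrc1 lie to the right in both, and Ace to the left.

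The 49 remaining members with neither gene were not alike. They are described by Flt3 and Csf1r, a split chosen after the data had been seen, so the values are a description: 26 had Csf1r without Flt3, 10 had Flt3 without Csf1r, 4 had both and 9 (median 1935 UMIs) had neither. Class II genes gave 1.83% of the UMIs in the 26 and 2.61% in the 10. The 9 had a median mitochondrial share of 8.10%, near the 8.11% of the 19 barcodes with B-lineage genes, whose median depth was 2607 UMIs. What kind of cell the 9 are was not tested.

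The 26 with Csf1r carried monocyte genes. Lyz2 was detected in all 26, with a median of 80.5 UMIs and 13701 (13180 to 14237) CPM. Zeb2, a transcription factor shared by monocytes and type 2 dendritic cells, was detected in 23. Ace was in 12, the nonclassical monocyte receptor Treml4 in 6 and the fractalkine receptor Cx3cr1 in 12, against 13 with Ly6c2, the surface protein of classical monocytes, and 21 with Ccr2. Sirpa was in 19. Clec9a, Klrd1 and the stem cell factor receptor Kit had no UMI. Genes of both monocyte kinds were therefore present in these 26 barcodes.

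The 10 with Flt3 carried genes of the type 1 dendritic lineage without Xcr1. The dead-cell receptor Clec9a had 6 UMIs in 3 of them, at 65.7 (24.1 to 143) CPM, and Tlr3, a sensor of double-stranded RNA, 7 in 4. The cross-presentation gene Wdfy4 was in 7, Naaa and Cd24a in 8 each, the transcription factors Batf3 in 5, Irf8 in 8 and Id2 in 6, and Kit in 5. Ace had no UMI in these 10, Ly6c2 and Sirpa were in 1 each, and Lyz2 stood at 591 (444 to 771) CPM. The peptide-exchange inhibitor H2-Oa was in 6 of the 10 and in 1 of the 26 with Csf1r.

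**Figure D4:**
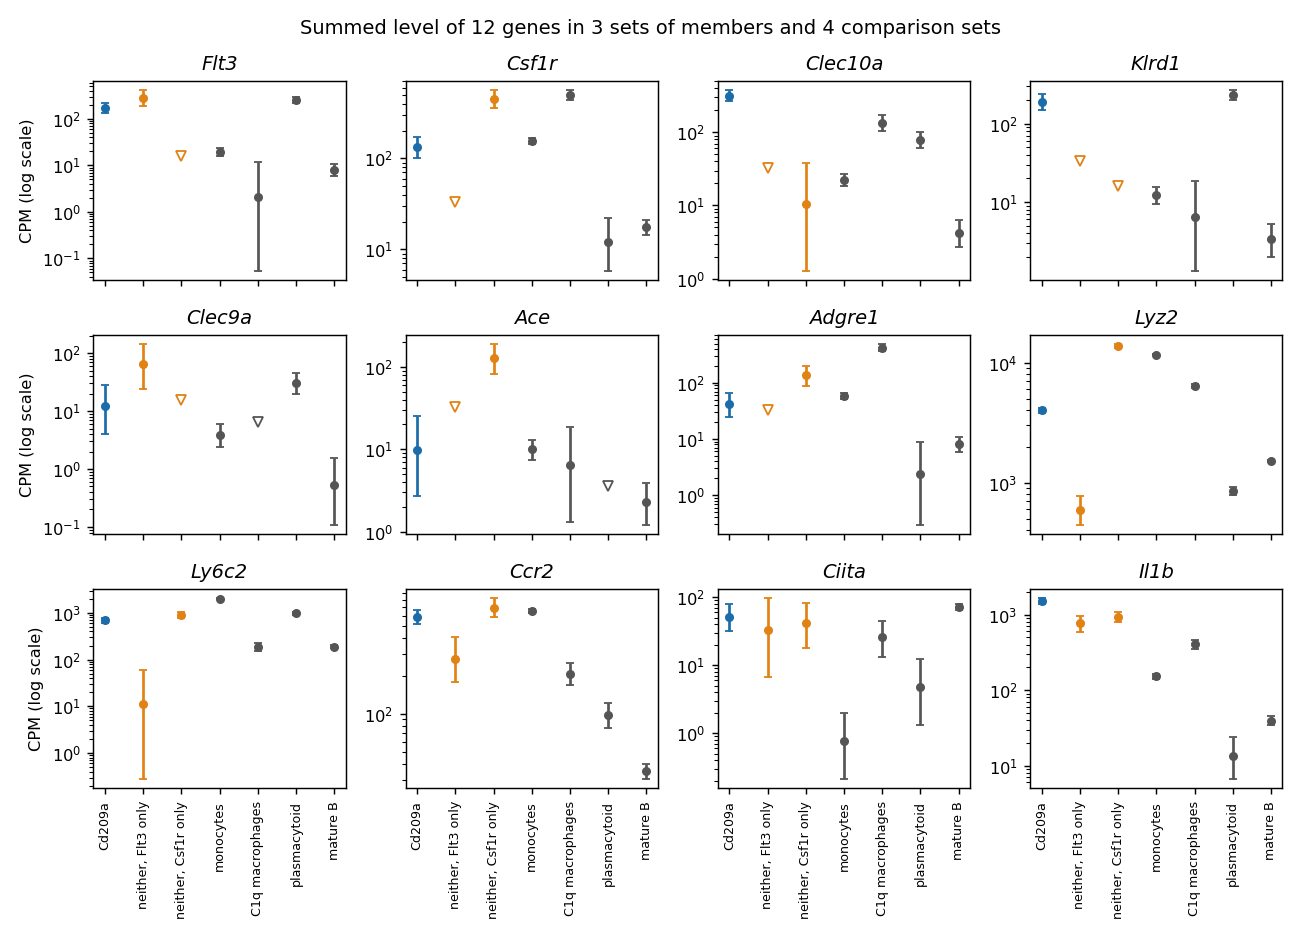
Levels in CPM on a log axis, with exact Poisson 95% intervals, of 12 genes in the 48 remaining Cd209a members, the 10 and 26 remaining members with neither gene that had Flt3 or Csf1r alone, monocytes, C1q macrophages, plasmacytoid cells and mature B cells, with open triangles at the floor of 3 counts where a group had no UMI. Clec10a and Klrd1 are highest among the members in the Cd209a set, Clec9a in the Flt3 set, and Ace and Lyz2 in the Csf1r set.

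The 2 Xcr1 barcodes had 13933 and 18086 UMIs, and 671 and 234 UMIs of the 4 class II genes. Both had Clec9a (4 and 3 UMIs), Flt3 (5 and 7), Wdfy4 (15 and 3), Naaa (7 and 13), Kit (4 and 4) and Irf8 (5 and 43), and neither had a UMI of Cd209a, Clec10a, Csf1r or Sirpa. They differed in division genes: the second had 32 UMIs of Mki67 and 22 of Top2a, a DNA-untangling enzyme of dividing cells, and the first none of either. The first had 36 UMIs of Cd83 and the second none. The second also had 171 UMIs of the haemoglobin gene Hbb-bs, against 3.

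Against classical monocytes the members carried more RNA of most class II loading genes and of several co-stimulatory and dendritic genes, while monocyte genes differed in both directions. Of 9848 genes 642 (6.52%) were higher in the 143 members and 1014 (10.3%) lower, and with the 99 remaining members 617 of 9613 (6.42%) were higher and 1366 (14.2%) lower. Ly6c2, the class II genes and a UMI of Csf1r or Ccr2 were used to form the 2 groups, so their levels are not a result. The monocyte group itself held other cells' genes, with 533 UMIs of the T and natural killer chemokine Ccl5 in 23 barcodes and 220 of the basophil protease Prss34 in 4. Of 6 progenitor genes 5 were lower in the members than in it, the azurophil enzyme Mpo at 0.159 (0.140 to 0.178), and their part in the result was not tested.

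Of 9 class II loading genes 7 were higher in the members and none lower, with a median log2 ratio of 2.71 against -0.13 over all genes, and of 3.36 with the 99. Ciita, whose protein directs class II transcription (chr16:10480059-10528418), had 48 UMIs in 33 members and 4 in 3 monocytes, a ratio of 43.2 (15.8 to 165). The loading chain H2-DMb1 was higher by 6.56 (5.68 to 7.58), its inhibitor H2-Oa by 10.2 (5.97 to 18.3), H2-Ob by 13.9 (7.61 to 27.1) and the protease Lgmn by 2.60 (2.23 to 3.01). The protease Ctss, which trims the invariant chain, had 1.25 (1.16 to 1.34), and March1, the ligase that removes class II from the surface, 0.700 (0.503 to 0.957). Of 14 class I genes none was higher or lower, with all members or with the 99. With the 99 the ratio of H2-DMb1 was 10.3 and that of H2-Oa 16.3.

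Co-stimulatory genes were higher in 4 of 8, and in 7 of 7 with the 99 remaining members. With all members, Cd200 (20 UMIs against 6) passed the minimum through the members. Cd83 was higher by 5.67 (5.14 to 6.26), the checkpoint ligand Cd274 (PD-L1) by 4.12 (2.20 to 7.78) and Cd40, the receptor for T-cell help, by 2.37 (1.40 to 3.95). Cd86 had a ratio of 1.83 (1.53 to 2.18) with all members and 2.97 (2.47 to 3.57) with the 99. Of 8 conventional dendritic genes 5 were higher and 1 lower, with Flt3 (4.17, interval 3.17 to 5.50), Itgax (10.8, interval 6.42 to 18.9), the transcription factor Zbtb46 (4.03, interval 1.98 to 8.25) and the peptidase Dpp4 (3.23, interval 2.30 to 4.53). Among transcription factors Batf3, needed for type 1 dendritic cells, was higher by 8.29 (4.80 to 14.8) and Irf4, linked with type 2 cells, by 5.35 (3.42 to 8.47), while Irf8 had a ratio of 0.587 (0.502 to 0.684). The homing receptor Ccr7 was higher by 27.4 (14.1 to 59.4) with all 143 members, which include the 19 barcodes with B-lineage genes. It was seen in 9 of the 99 remaining members. With the 99, dendritic ratios were mostly larger: Flt3 7.25, Itgax 17.8, Zbtb46 6.60, Dpp4 5.40, Batf3 14.2 and Cd83 8.83, with Irf4 at 3.39.

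Among cytokine and chemokine genes 2 of 15 were higher and 4 lower, and with the 99 members 6 and 3. The inflammatory cytokine Il1b was higher by 4.45 (4.05 to 4.90) and Cxcl16 by 16.2 (10.5 to 25.8). Of 8 Toll-like receptor genes 4 were lower with all members and none with the 99. Tlr2, a sensor of bacterial lipoproteins, moved from 0.483 to 0.771. Of 13 monocyte genes 3 were higher and 5 lower with all members, and 3 and 3 with the 99, and in both counts the lower ones include Ly6c2, on which the monocytes were chosen. The clotting factor F13a1 was lower at 0.123 (0.104 to 0.144), the matrix protein Fn1 at 0.117 (0.102 to 0.133) and Lyz2 at 0.350 (0.340 to 0.359), while Ace (3.74, interval 2.50 to 5.61) and Treml4 (3.44, interval 1.80 to 6.56) were higher. With the 99, Lyz2 at 0.545 was no longer called, F13a1 and Fn1 stood at 0.203 and 0.203, and Treml4, Il1b and Cxcl16 at 5.70, 7.92 and 24.9. Of 16 cell cycle genes 6 were lower with all members and 15 with the 99, Mki67 at 0.460 (0.375 to 0.559) and Top2a at 0.397 (0.321 to 0.487). Haemoglobin turned direction with the choice of barcodes, as Hbb-bs had a ratio of 2.19 with all members and 0.0863 with the 99, which leave out barcodes rich in it.

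Against the 82 C1q macrophages, 765 of 7481 genes (10.2%) were higher in the 143 members and 691 (9.24%) lower, and 711 of 6285 (11.3%) and 695 (11.1%) with the 99. The C1q genes formed this group. Of 6 erythroid genes none was higher or lower in all 143 members, and lower values in the 99 follow from leaving out barcodes rich in haemoglobin. Several macrophage genes passed the minimum of 20 UMIs through the macrophages alone, so the list is given by its genes and not counted. The adhesion protein Vcam1 was lower at 0.00330 (0.00158 to 0.00610), the iron exporter Slc40a1 at 0.00737 (0.00294 to 0.0154), the transcription factor Spic of iron-recycling macrophages at 0.00984 (0.00117 to 0.0370), Hmox1 at 0.0314 (0.0225 to 0.0428) and Adgre1 at 0.106 (0.0787 to 0.141). The engulfment receptor Mertk had no UMI in the members, at least 56.6-fold lower against the floor of 3 counts. Mrc1, higher in Cd209a members than in the others, was lower in the members as a whole, at 0.0696 (0.0540 to 0.0888). Its share was 79.3% of the macrophages. With the 99 members Mrc1 was at 0.121, Adgre1 at 0.170 and Mertk at least 30.9-fold lower.

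In the other direction, conventional dendritic genes were among those higher in the members, some of them with enough UMIs through the members alone. Flt3 had 1 UMI in the macrophages, a ratio of 38.6 (6.79 to 1537), and Dpp4 2.84 (1.37 to 6.85) and Kmo 9.23 (1.53 to 378) were higher. Klrd1 was higher by 9.01 (2.98 to 44.6). With the 99 members these 4 ratios were 67.0, 4.75, 14.5 and 16.1, in the same order. Of 9 class II loading genes 2 were higher and 1 lower, the 2 being H2-Oa (17.8, interval 3.06 to 716) and H2-Ob (3.56, interval 1.44 to 11.4) and the 1 Lgmn (0.194, interval 0.168 to 0.223). H2-Oa, with 54 UMIs against 1, and H2-Ob, with 54 against 5, passed the minimum through the members. With the 99 members 4 were higher, H2-Oa at 28.4 and H2-DMb1 at 2.30 (1.88 to 2.84). The class II chains themselves, on which the members but not the macrophages were chosen, had ratios of 0.892 (H2-Aa) and 1.07 (Cd74). Among co-stimulatory genes Tnfsf9 (28 UMIs against 0) and Cd200 (20 against 1) passed the minimum through the members, so the list is not counted. Icosl had a ratio of 2.06 (0.712 to 8.15), an interval that includes 1, and no gene of the list was lower. Csf1r was lower at 0.422 (0.354 to 0.503) and Apoe at 0.133 (0.125 to 0.141), while Il1b had a ratio of 1.68 (1.44 to 1.98) with all members and 2.99 (2.56 to 3.52) with the 99.

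Against the 97 plasmacytoid cells, dendritic cells that make type I interferon, 843 of 8246 genes (10.2%) were higher in the 143 members and 1630 (19.8%) lower, and 754 of 7425 (10.2%) and 1551 (20.9%) with the 99. Most plasmacytoid genes had nearly all their UMIs in the plasmacytoid cells and passed the minimum of 20 through them, so they are given by name and not counted, and Siglech, on which the group was formed, is left out. The lineage factor Tcf4 was lower at 0.0562 (0.0474 to 0.0663), Irf8 at 0.0717 (0.0615 to 0.0833), the virus-tethering protein Bst2 at 0.0812 (0.0719 to 0.0914), the transcription factors Spib at 0.0387 (0.0242 to 0.0590) and Bcl11a at 0.0599 (0.0435 to 0.0807), and the gut-homing receptor Ccr9 at 0.00362 (0.00132 to 0.00790). Cox6a2 had no UMI in the members, at least 312-fold lower against the floor of 3 counts, and at least 170.3-fold with the 99. Of 6 erythroid genes 4 were higher and none lower in all 143 members, and the choice of the 99, which leaves out barcodes rich in haemoglobin, set the opposite direction.

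Several genes counted as dendritic were higher in plasmacytoid cells. Of 8 conventional dendritic genes 1 was higher in the members and 5 lower, with Flt3 at 0.324 (0.256 to 0.408), Itgax at 0.431 (0.303 to 0.609) and Kmo at 0.129 (0.0826 to 0.196), and with the 99 members 1 and 2. Flt3 at 0.563 and Itgax at 0.710 were then no longer called, and Kmo stood at 0.203. Klrd1 was lower at 0.248 (0.189 to 0.323), and at 0.444 with the 99. Clec10a had 1.21 (0.892 to 1.65) with all 143 and was higher at 2.16 (1.59 to 2.96) with the 99. Zbtb46 was the higher one, at 5.52 (1.33 to 48.9), and Batf3 was higher at 26.7 (4.57 to 1079). Ciita, H2-DMb2, H2-Ob and March1 passed the minimum of 20 UMIs through the members, so class II loading genes are not counted. None of them was lower. H2-DMb1 was higher at 6.22 (4.65 to 8.49) and Ciita at 6.98 (2.55 to 26.6), but H2-Oa had 0.668 (0.443 to 1.01). The members, but not the plasmacytoid cells, were chosen on class II genes, so these ratios are not independent of that choice. Among co-stimulatory genes Cd40, Cd80 and Tnfsf9 passed the minimum of 20 UMIs through the members, so the list is not counted. Cd83 was higher at 11.3 (8.60 to 15.2), Cd86 at 5.55 (3.50 to 9.30), and Cd80 at least 9.69-fold, since plasmacytoid cells had no UMI of it. Cd200 was lower at 0.388 (0.209 to 0.706). With the 99 members Batf3 was at 45.8, Zbtb46 at 9.05, H2-DMb1 at 9.75, H2-Oa at 1.06, Cd83 at 17.6, Cd86 at 9.05 and Cd80 at least 16.7-fold higher. Among monocyte genes Ace (53 UMIs against 0), Fcgr1 (23 against 0) and Treml4 (21 against 1) passed the minimum through the members. That list is therefore not counted either, and Ly6c2 was lower at 0.395 (0.354 to 0.441). Csf1r was higher at 17.3 (9.26 to 36.4), Lyz2 at 4.73 (4.38 to 5.13) and the integrin chain Itgam at 9.45 (5.29 to 18.6). Il1b was higher by 51.2 (28.5 to 103) and Cxcl16 by 68.0 (12 to 2710), and with the 99 Lyz2, Il1b and Cxcl16 were at 7.39, 91.2 and 104.

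**Figure D5:**
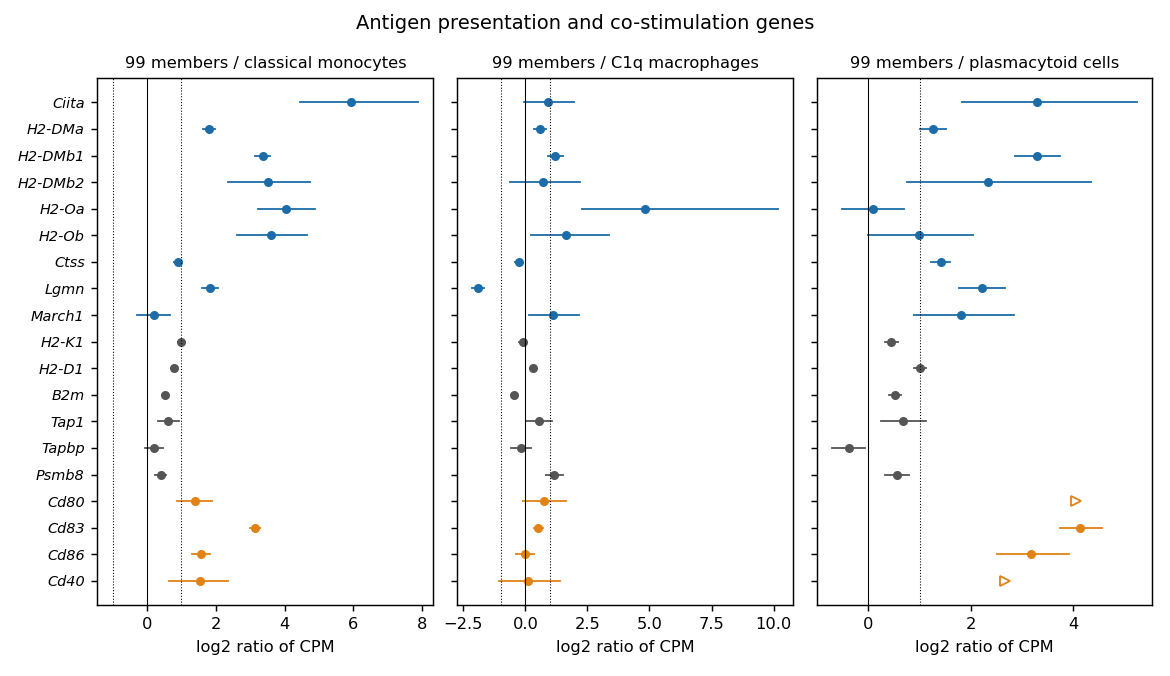
Points give log2 ratios of CPM of the 99 remaining members over monocytes, C1q macrophages and plasmacytoid cells for 19 genes, with 95% intervals of counting error, in blue for class II loading, grey for class I and orange for co-stimulatory genes, and open triangles mark lower bounds where the comparison group had no UMI. The point of H2-DMb1 lies right of 1 on the log2 axis in all 3 panels.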

How the data were processed

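For the 4 pooled records the authors deposited raw UMI counts of genes by barcodes in 1 matrix. Cell Ranger 3.1.0 is named in the header of that matrix, and Seurat 3 and mm10 in the submitters' processing notes. A second deposited matrix holds counts of 98 added sequences. The first held 90273806 UMIs over 31053 genes, with a median of 3812 per barcode.

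Barcodes were kept and grouped by the UMI limits given in the report. Doublets were not removed, since the rule for the members uses no caller, and Scrublet (scanpy 1.11.5) was run as an alternative. Counts were summed per group, scaled to CPM and compared as ratios. With no counts on 1 side, a bound was taken against 3 counts. Shares were also computed with every barcode thinned to 1000 UMIs, which left none out. Thinned shares rest on 1 random draw.

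Members, lists and rules were chosen with earlier results of these data known. Named genes are members of the 24 marker and gene lists and, per comparison, the 12 highest and 12 lowest by log2 ratio (0.5 counts added) with at least 50 UMIs. Promoter sequences were read from RefSeq (GRCm38.p6), and gene positions from GENCODE M21. Ifi30, Clec6a and Clec7a were not analysed here. The limits for other-lineage barcodes and the split by Flt3 and Csf1r were set after the data had been seen. Scripts were tested on simulated data. Intervals were computed with scipy 1.17.1 under Python 3.11.15, with pandas 2.3.3 and numpy 2.4.6 for the sums and matplotlib 3.10.9 for plots.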

Additional observations from a re-analysis of the deposited data

Results flagged for a closer look

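Added sequences stand outside the comparisons of the report. Of the 98, only WPRE, TDT and EGFP were counted here, and all 3 had UMIs in the members. WPRE, a viral element used to raise transgene expression, had 117 UMIs in 61 of the 143 members, 82.3 CPM (68.1 to 98.7), where monocytes had 59.8, macrophages 44.8, plasmacytoid cells 89.5 and mature B cells 52.0. TDT, the tdTomato sequence, had 6 UMIs in 6 members, 4.22 CPM (1.55 to 9.19), with 0.977 in monocytes, 4.27 in macrophages, 1.22 in mature B cells and no UMI in plasmacytoid cells. EGFP had 2 UMIs in 2 members, 1.41 CPM. No group without the transgenes was in the library, so a background level could not be set. In all 143 members the levels of WPRE and TDT lay among those of the other groups. In the 99 remaining members WPRE had 111 (88.6 to 137) CPM, above plasmacytoid cells at 89.5 (70.3 to 112), with overlapping intervals. TDT had 5.15 (1.40 to 13.2) CPM in the 99 and 4.27 (0.517 to 15.4) in macrophages, with overlapping intervals.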

How the results depend on the processing

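The number of members lay between 99 and 183 under 10 alternatives. The share with Cd209a was 18.2% after thinning to 1000 UMIs and 48.5% without other-lineage barcodes, and the Xcr1 share was 0 after thinning and 0 at a limit of 2 UMIs. Counts of called genes changed most with the minimum of UMIs. With at least 50 UMIs, 331 genes were higher and 354 lower in Cd209a members than in members with neither, 383 higher than in monocytes, 369 higher and 374 lower than in macrophages, and 540 higher and 919 lower than in plasmacytoid cells. With no minimum these were 2001 and 3495, then 2089 higher and 3206 lower against monocytes, 3185 and 2171 against macrophages, and 2711 and 3537 against plasmacytoid cells. Fewer or more genes are then tested. Without other-lineage barcodes 182 genes were higher and 296 lower in Cd209a members. With each cell weighted equally 1292 were higher than in macrophages, and the cause was not tested. Among 125 ratios of named genes, 2 turned without other-lineage barcodes, Ccr2 in Cd209a members against members with neither (log2 ratio -0.0075) and Hbb-bs against monocytes (-3.53), and 71 moved beyond their interval. With equal weight per cell 1 turned, Ciita in Cd209a members (-0.0015), and 39 moved. Without the 50 most abundant genes no ratio of the 117 left turned or moved, and 9 moved with at most 10% mitochondrial UMIs and 6 without barcodes marked by Scrublet. The planned comparison of Cd209a with Xcr1 members was not run, since 2 barcodes had Xcr1. No paired analysis was possible because the 4 records are 1 group pooled in 1 library, and for the same reason no record could be left out. Depth limits rare genes: in the members 3 counts equal 2.11 CPM.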

Other observations

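Growth factor receptors other than Flt3 and Csf1r differed between groups as well. Of the 8 growth factor receptor genes, Flt3 and Csf1r included, 4 were higher in the members than in monocytes, against 6.52% of all genes. Beside Flt3 they were the osteoclast receptor Tnfrsf11a at 8.93 (5.41 to 15.2) and 3.15 with the 99 remaining members, Kit, the stem cell factor receptor, at 2.42 (1.53 to 3.79), and Csf2rb2, a chain of the interleukin 3 receptor whose near copy Csf2rb makes its reads uncertain, at 2.50 (1.89 to 3.31). Against plasmacytoid cells Csf2ra, the alpha chain of the GM-CSF receptor, was higher at 3.89 (2.73 to 5.69) and Csf2rb2 lower at 0.442 (0.332 to 0.588). Csf3r, the receptor of the granulocyte factor G-CSF, was lower in the remaining Cd209a members than in the remaining members with neither, at 0.308 (0.133 to 0.658).

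Among the remaining barcodes, genes outside the lists were also lower in Cd209a members. Gngt2, a G protein gamma subunit, was seen in 17 of 48 Cd209a members and 26 of 49 members with neither, with a ratio of 0.173 (0.109 to 0.266). Adgre4, an adhesion receptor of the F4/80 family, was seen in 9 and 18, with a ratio of 0.233 (0.119 to 0.428), and the scavenger receptor Cd36 in 4 and 13, with a ratio of 0.263 (0.125 to 0.514). Against plasmacytoid cells the members were higher in the lectin Clec4a3, at 39.5 (10.7 to 329.8), whose sequence is close to other Clec4a genes, so that its reads are uncertain.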
